A study of Mus musculus with 4 samples.

Results

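The difference between unstimulated RAW 264.7 cells with a miR-155 vector and with a control vector was read from 2 arrays. The cells were transfected with a vector expressing miR-155 or with a control vector, and neither was given cytokines. RAW 264.7 is a mouse macrophage-like cell line. The 2 arrays are of 4 in the study; the other two hold the same 2 transfectants after 72 h of RANKL and M-CSF, the cytokines that turn these cells into osteoclasts, and serve here only for comparison. A dose of 20 ng/ml is given in the study's text, which does not state if it is per cytokine. That text speaks of wild-type cells for the control, while the sample description has a vector. Neither the vectors nor the level of miR-155 they gave is described, and the labels do not say if the transfectants were clones or pools. Each group has 1 array, so the differences below were not tested and have no replicates behind them, and precision is limited by the number of arrays. The question is how messenger RNA levels differed between the 2 transfectants before osteoclast differentiation began. An effect of miR-155 cannot be told apart from other differences between the 2 cultures.

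MicroRNAs are short RNAs that guide Argonaute proteins to messenger RNAs, mostly by pairing of the seed, bases 2 to 8 of the microRNA, with the 3′ UTR of the target, and the target is then degraded or translated less. miR-155 is processed from the Bic transcript, is induced in macrophages by inflammatory signals, and is known to hold down regulators such as Inpp5d (the phosphatase SHIP1), Socs1 and Bach1. Mitf and its relatives Tfe3, Tfeb and Tfec are basic helix-loop-helix factors that bind E-boxes in promoters of lysosomal, melanosomal and osteoclast genes. They are held in the cytoplasm by mTORC1 at the lysosome, where folliculin, with its partners Fnip1 and Fnip2, acts on the Rag GTPases.

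The sequences of mouse miR-155, from RefSeq on build GRCm38.p6, are shown because the seed decides which messenger RNAs it can pair with. Capitals mark the seed, bases 2 to 8. The guide strand, mmu-miR-155-5p, lies at chr16:84714143-84714165 on the + strand, and the other strand of the hairpin, mmu-miR-155-3p, at chr16:84714182-84714202. The 5p seed pairs with AGCAUUA in a target. No 3′ UTR sequences were used here, so sites for this seed were not counted.
mmu-miR-155-5p: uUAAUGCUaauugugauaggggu
mmu-miR-155-3p: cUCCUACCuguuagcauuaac

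The arrays did not measure the vector's product. The probe set for Mir155 read 3.72 with the control vector and 3.58 with the miR-155 vector, on the log2 scale of the deposited values, both below the floor of 4.25. That floor is the 95th percentile of 1212 olfactory and vomeronasal receptor probe sets, genes that these cells should not express. The label of the miR-155 array was therefore not checked by its own transcript.

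Of 19938 genes represented by 1 probe set each, 13561 had a value above the floor on at least 1 of the 4 arrays. All 10 defining macrophage markers were above the floor on both unstimulated arrays, between 8.01 and 13.60. Of a broader list of 28 macrophage markers, 22 were above the floor on at least 1 of the 4 arrays. Mrc1, Cd163, Ms4a7, Mertk, C1qb and C1qc were not. Of the defining markers of T cells, 2 of 4 were above the floor on both arrays, of B cells 1 of 3, of dendritic cells 2 of 4, and of granulocytes and mast cells 1 of 6, with no value over 5.46. Fibroblast and osteoblast markers reached 5.76, with 3 of 4 above the floor on both arrays. Osteoclast markers reached 6.72, with 5 of 6 above the floor on both. The 2 arrays were alike: their Pearson correlation across these genes, which are not independent replicates, was 0.989, against 0.937 between the vectors after stimulation. The receptor probe sets give a scale for technical scatter of dim probe sets: 95% of them differed by less than 0.37 between the unstimulated arrays, 7 of 1212 (0.578%) by 1.5-fold and 0 by 2-fold.

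More genes were lower than higher in the miR-155 cells. The miR-155 value was at least 2-fold below the control value for 74 genes (0.546% of 13561) and at least 2-fold above it for 9 (0.0664%). At 1.5-fold, 426 genes were lower (3.14%) and 160 higher (1.18%). With each array centred on its own median in place of the deposited scaling, 316 were lower and 253 higher, so the lower share of the genes past 1.5-fold went from 72.7% to 55.5%, while the 2-fold counts became 57 and 12. The median difference over all 13561 genes was -0.00 (50.1% of genes lay below 0). Of the 83 genes past 2-fold, 5 had a value below the floor on 1 array, as had 50 of the 586 past 1.5-fold; they were counted by the deposited values, and their folds are given as bounds.

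**Figure D1:**
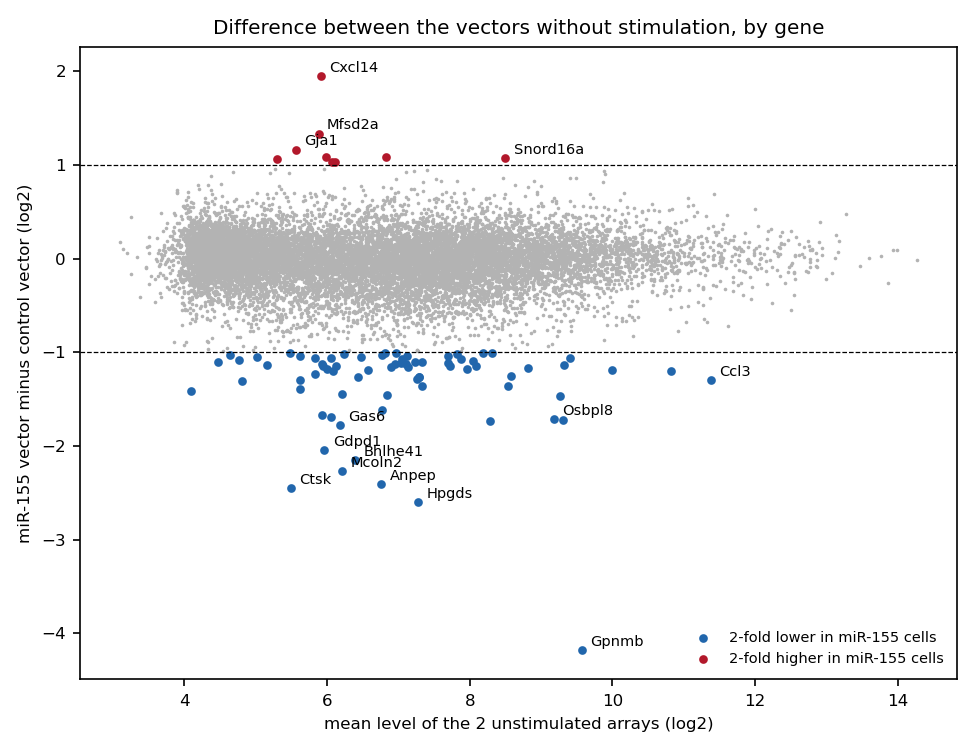
Each point is 1 of the 13561 genes, with the mean of the 2 unstimulated arrays (log2) on the horizontal axis and the miR-155 minus control difference (log2) on the vertical axis; dashed lines mark 2-fold. The 74 blue genes reach -4.18 (Gpnmb), with Ccl3 the brightest of them, and the 9 red genes reach 1.95 (Cxcl14).

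Gpnmb, a transmembrane glycoprotein of melanosomes and lysosomes and a known Mitf target, differed most. Its level was 11.67 with the control vector and 7.49 with miR-155, an 18.1-fold lower value (-4.18 on the log2 scale). With stimulation the levels were 12.99 and 10.29. Both miR-155 arrays lay below both control arrays for this gene. Ctsk, the collagen-degrading cathepsin K of osteoclasts, read 6.72 with the control vector and 4.26, just above the floor, with miR-155 (5.48-fold lower, -2.45). Its levels after stimulation were 13.40 and 11.18. Slc24a5, a cation exchanger of melanosomes, stood at 6.90 against 5.21 (-1.69), and after stimulation at a similar distance (-1.37).

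Several enzymes and transporters of lipids and small molecules were among the 30 lowest. Hpgds, the prostaglandin D synthase of blood cells, was at 8.58 in control and 5.98 in miR-155 cells (6.07-fold lower), and after stimulation the difference was -0.27. Osbpl8, a lipid transfer protein between endoplasmic reticulum and plasma membrane, differed by -1.72 without and -1.82 with stimulation. Gdpd1, a lysophospholipase D, had -2.05, the cholesterol ester hydrolase Nceh1 -1.25, the epoxide hydrolase Ephx1 -1.36, the retinol-oxidising dehydrogenase Adh7 -1.30 and the inositol carrier Slc5a3 -1.28. Slc7a11, the cystine importer that feeds glutathione synthesis, had levels of 7.56 and 6.11 (-1.45). Gda, the guanine deaminase, was lower by 1.61 here and, after stimulation, higher in the miR-155 cells.

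Surface proteins and secreted factors were also among the 30 lowest. Anpep, the aminopeptidase CD13, was at 7.96 and 5.55 (5.31-fold lower). Gas6, the bridging ligand that lets macrophages take up dying cells through Axl and Mertk, was at 7.07 and 5.29 (3.43-fold lower). Both were further apart after stimulation, at -3.67 and -3.08. The chemokine Ccl3 was at 12.03 and 10.73, and Ccl2 at 5.46 in control cells and under the floor in miR-155 cells, at least 2.32-fold lower. Il7r, a cytokine receptor chain, was above the floor in the control cells alone (4.81) and at least 1.47-fold lower. Lilr4b, an inhibitory receptor, differed by -1.73 without stimulation and by 0.28 with it. The cation channel of endolysosomes Mcoln2 had -2.27.

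Regulators among the 30 lowest were Bhlhe41 (-2.15), a repressor that itself binds E-boxes, Tfec (-1.39), Fnip2 (-1.72), the chromatin remodeller Atrx (-1.26), the nucleosome-binding Hmgn5 (-1.24), the translational regulator Cpeb4 (-1.26) and the ubiquitin ligase Rnf144b (-1.66). The remaining ones were Ndrg1 (-1.47), Ndrg4 (-1.45), the cyclophilin Ppic (-1.36) and Ly96 (-1.27), the partner of Tlr4. Of the 74 genes, 55 belonged to none of the 35 gene lists described below.

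The 9 higher genes were led by the chemokine Cxcl14, at 4.94 in control and 6.89 in miR-155 cells (3.87-fold higher), and after stimulation at 4.49 and 6.26. Mfsd2a, a carrier of lysophosphatidylcholine, was at 5.22 and 6.55 (2.52-fold higher). Next came Gja1, which encodes the gap junction protein connexin (1.16), the lymphotoxin subunit Ltb (1.08), the ubiquitin ligase Neurl3 (1.08), the small nucleolar RNA Snord16a (1.07), the interleukin 18 receptor chain Il18rap (1.07), the extracellular peroxidase Pxdn (1.03) and Tmeff1 (1.03). All but Pxdn (-0.09) also had a higher value in the stimulated miR-155 cells.

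**Figure D2:**
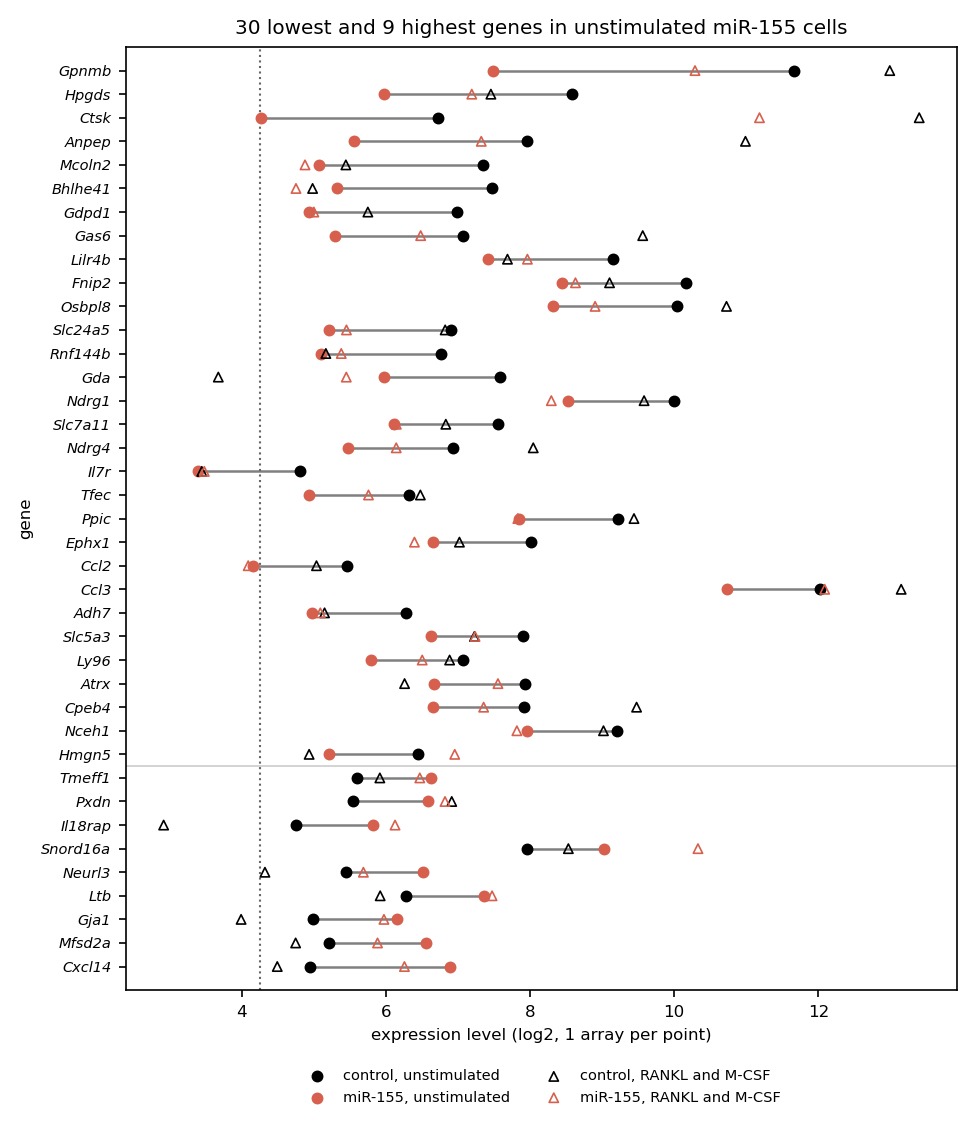
Levels (log2, 1 array per point) of the 30 genes furthest below and the 9 furthest above the control in unstimulated miR-155 cells; circles are unstimulated, triangles stimulated, black control and red miR-155, the grey bar joins the unstimulated pair and the dotted line is the floor of 4.25. Gpnmb has the longest bar, from 11.67 to 7.49, and Il7r and Ccl2 end below the floor in the miR-155 cells.

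The counts of list members past 1.5-fold are to be read against the shares over all genes, 3.14% lower and 1.18% higher. Reported direct targets of miR-155 differed little as a group. Of 62 listed, 54 were on the array and 50 above the floor; 4 were at least 1.5-fold lower (3.14% of all genes were) and 0 higher. The median was -0.03, with 28 of 50 below 0, and 0.03 when each array was centred on its median. The 4 were Hbp1, an HMG-box repressor of cell cycle genes (7.88 in control, 6.78 in miR-155 cells, -1.10), the p53-induced Trp53inp1 (5.29 and 4.59), Mitf (7.70 and 7.07) and the mTORC1 activator Rheb (8.65 and 8.03). After stimulation Hbp1 (-1.06) and Trp53inp1 (-1.95) were again lower, whereas Mitf (-0.13) and Rheb (0.15) were close to the control.

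Well known targets of this list had small differences in both directions. Bach1, a repressor of heme oxygenase, was at 7.90 and 7.33 (-0.57), just under 1.5-fold. Inpp5d was at 9.56 and 9.55 (-0.01) and Jarid2, a Polycomb partner, at 7.62 and 7.54 (-0.08). Socs1 (0.27), Spi1, which encodes PU.1 (0.10), Cebpb (0.18), Csf1r, the M-CSF receptor (0.18), and Myd88 (0.26) had slightly higher values in the miR-155 cells. All were under the 0.37 that 95% of the receptor probe sets stayed within. Those probe sets are dim, and scatter at the level of these brighter genes was not measured. Fos, the AP-1 subunit needed for osteoclasts, was higher by 0.53. Messenger RNA levels do not show whether translation of these genes differed. The 23 genes above the floor of the microRNA and RNA silencing machinery had a median of -0.10, and 0 of them reached 1.5-fold.

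The list of Mitf and Tfe factors, folliculin and mTORC1 control had a median of -0.29. Of its 25 members above the floor, 7 were at least 1.5-fold lower (28.0% against 3.14% of all genes) and 0 higher. Besides Gpnmb, Fnip2 (10.17 in control, 8.44 in miR-155 cells) and Tfec (6.32 and 4.93), these were Fnip1 (8.38 and 7.39), folliculin itself, Flcn (8.89 and 8.19), Mitf and Rheb. Folliculin and both its partners were thus all at lower levels. Tfe3 (0.11) and Tfeb (0.21) had slightly higher values, both under the 0.37 that 95% of the dim receptor probe sets stayed within. Scatter at the level of Tfe3 and Tfeb was not measured. The difference of Mitf, -0.63, is that of its brighter probe set; the second one lay below the floor, and the mean of both gave -0.36.

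Genes of the lysosome, which this factor family is known to drive, lay to the lower side with smaller differences. The V-ATPase subunits, which build the proton pump, had a median of -0.28 over 19 genes, with 5 lower past 1.5-fold (26.3% against 3.14% of all genes): Atp6v0d2 (5.46 and 4.48), Atp6v1a (10.71 and 9.88), Atp6v1d (-0.73), Tcirg1 (-0.67) and Atp6v1c1 (-0.67). Atp6v0e2 was higher by 0.69. After stimulation the median of these subunits was -1.29. Lysosomal cathepsins had a median of -0.25 over 15 genes, and 4 were lower past 1.5-fold (26.7% against 3.14% of all genes). These were Ctsk, Ctss (-0.72), the peptidase Tpp1 (-0.72) and Ctsl (-0.68).

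Lysosomal membrane and trafficking proteins had a median of -0.24, with 22 of 27 below 0 and 3 past 1.5-fold. Igf2r, the receptor that delivers mannose 6-phosphate tagged enzymes, was at 9.88 and 8.75 (-1.13), the cystine exporter Ctns at 7.61 and 6.90 (-0.71), and Plin2, a lipid droplet coat protein, at 9.63 and 8.86 (-0.77). Among 25 glycosidases, sulfatases and lipases the median was -0.14; Gla, the galactosidase deficient in Fabry disease, was lowest (9.40 and 8.23, -1.17), Idua had -0.66, and the sulfatase Arsb was higher (0.59). Autophagy genes had a median of -0.14, and Sqstm1, the cargo receptor p62, was the 1 of 25 past 1.5-fold (11.61 and 10.96, -0.65).

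**Figure D3:**
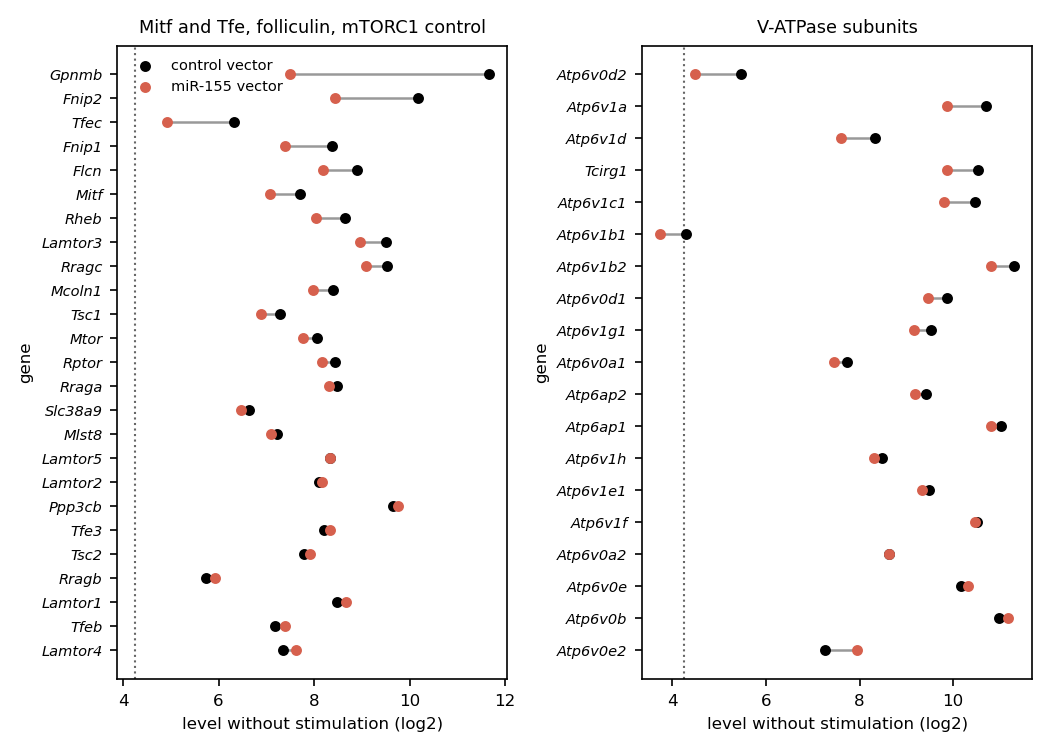
Levels (log2) without stimulation of the 25 members above the floor of the list of Mitf and Tfe factors, folliculin and mTORC1 control (left) and of the 19 V-ATPase subunits (right); black points are the control vector, red points the miR-155 vector, and the dotted line is the floor of 4.25. Red lies left of black for 17 of the 25 and 15 of the 19 genes.

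Promoters were also searched for the E-box letters that Mitf and Tfe proteins are known to bind. Whether the activity of these factors differed was not tested. RefSeq windows of 300 bases, from 250 before to 50 after the start of the gene on GRCm38.p6, were matched by symbol for 10774 of the 13561 genes. The motifs were TCATGTG, the letters CACGTG of the shared E-box core, and TCACGTG. A match to the last always holds the core too, and each motif was searched on both strands. TCATGTG was found for 2.78% of all 10774 genes, for 23 of 347 genes at least 1.5-fold lower (6.63%), for 6 of the 54 at least 2-fold lower (11.1%) and for 1 of 123 at least 1.5-fold higher (0.813%). TCACGTG was found for 6.46%, 10.7%, 11.1% and 5.69%, and CACGTG for 11.2%, 15.3%, 14.8% and 8.13%, in that order. Among genes at least 1.5-fold lower in both states, 11 of 137 held TCATGTG (8.03%) and 27 held CACGTG (19.7%). Lysosomal membrane and trafficking genes held TCACGTG in 8 of 24 windows (33.3%) and V-ATPase genes in 4 of 13 (30.8%). TCATGTG was held by 4 of the same 24 windows (16.7%) and by 0 of the same 13. Among all genes with a window, those with a match differed little as a group. Their median difference was -0.04 for the first motif named above, -0.01 for the core and -0.03 for the last. V-ATPase genes with the last motif had a median of -0.12, against -0.28 for their list. Lysosomal membrane and trafficking genes with it had -0.44, against -0.24. A match is a description of the letters in these windows. No test was made, and binding was not measured.

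Of the Mitf and Tfe list members at least 1.5-fold lower, Fnip1 and Rheb held a motif. Gpnmb, Fnip2, Tfec, Flcn and Mitf had no match or no window, as had Ctsk. The stretches that hold these motifs are shown for 8 of the lower genes, read 5′ to 3′ along the gene, with the motif of either strand in capitals. Gla and Igf2r each hold TCATGTG beside 2 copies of TCACGTGA within one stretch, and the first 5 genes below, with Rasgef1b, are the 6 genes at least 2-fold lower with TCATGTG.
Hpgds, chr6:65144785-65144831, - strand: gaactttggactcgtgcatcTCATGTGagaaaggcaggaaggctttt
Slc24a5, chr2:125068094-125068140, + strand: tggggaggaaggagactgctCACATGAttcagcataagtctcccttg
Slc7a11, chr3:50443662-50443708, - strand: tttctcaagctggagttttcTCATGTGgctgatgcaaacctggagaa
Gla, chrX:134601173-134601253, - strand: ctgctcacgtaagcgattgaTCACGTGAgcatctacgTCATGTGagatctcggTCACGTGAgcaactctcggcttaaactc
Igf2r, chr17:12769687-12769818, - strand: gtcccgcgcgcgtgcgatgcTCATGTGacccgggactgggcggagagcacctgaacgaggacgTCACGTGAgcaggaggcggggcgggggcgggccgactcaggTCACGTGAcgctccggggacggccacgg
Bhlhe41, chr6:145865547-145865593, - strand: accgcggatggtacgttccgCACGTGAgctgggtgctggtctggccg
Osbpl8, chr10:111164680-111164727, + strand: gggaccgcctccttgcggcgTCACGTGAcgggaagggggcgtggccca
Fnip1, chr11:54438084-54438130, + strand: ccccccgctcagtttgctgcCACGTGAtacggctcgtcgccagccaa

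Osteoclast genes differed in both directions before any stimulation. Of 25 osteoclast markers above the floor, 3 were at least 1.5-fold lower, namely Ctsk, Atp6v0d2 and Tcirg1, and 1 higher, the fusion protein Ocstamp (5.69 and 6.37, 0.68); the median was -0.13, with 16 below 0 and 9 above. Acp5, the tartrate-resistant acid phosphatase, was at 6.54 and 6.17 (-0.37), and Mmp9 at 5.12 and 4.59 (-0.54), while Cd109 (0.51), the creatine kinase Ckb (0.39) and Mmp14 (0.31) were on the higher side. Osteoclast transcription factors had a median of 0.15, with Tfec and Mitf lower and Cebpa higher (7.11 and 7.74, 0.63). Nfatc1, which leads the osteoclast gene programme, was at 8.30 and 8.27 (-0.03). Of 30 genes of RANK and M-CSF signalling 2 were at least 1.5-fold lower (6.67% against 3.14% of all genes). These were the exchange factor Vav3 (7.46 and 6.46) and Sqstm1. The RANKL receptor Tnfrsf11a was at 8.53 and 8.91 (0.38).

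Among macrophage markers, 5 of 22 were at least 1.5-fold lower (22.7% against 3.14% of all genes) and 1 higher (4.55% against 1.18%), and the median was -0.18. Mpeg1, the pore-forming perforin-2, was at 10.58 and 9.39, Adgre1, an adhesion receptor of macrophages, at 9.26 and 8.35, and the inhibitory Fc receptor Fcgr2b at 6.42 and 5.64. The activating Fc receptor Fcgr1 was higher, at 8.01 and 8.68. Others differed less, such as Cd68 (-0.22), Itgam (-0.00) and Lyz2 (0.01). Since these are bulk RNA samples, fewer cells of a kind and less RNA per cell cannot be told apart.

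Of the Toll-like receptor and adaptor genes 5 of 22 were at least 1.5-fold lower (22.7% against 3.14% of all genes) and 1 higher (4.55% against 1.18%), with a median of -0.11. Tlr4, the endotoxin receptor, was at 7.58 and 6.51 (-1.07) and its partner Ly96 at 7.07 and 5.80 (-1.27), while their co-receptor Cd14 was at 10.59 and 10.67 (0.08). The nucleic acid sensors Tlr7 (8.55 and 7.85) and Tlr13 (8.76 and 8.02) were lower too. Tlr8, counted by its deposited values, was below the floor in miR-155 cells (at least 0.51 lower, a bound under 1.5-fold). The adaptor Tirap was higher by 0.60. Of 22 inflammatory cytokines and chemokines, Ccl2, Ccl3 and the interleukin 1 antagonist Il1rn (6.59 and 5.42) were lower, and Cxcl10 (6.94 and 7.88) and Il18 (5.59 and 6.31) were higher; Tnf had 0.34. Interferon-stimulated genes had a median of 0.13, with 26 of 39 above 0 and 2 past 1.5-fold. These were Psmb9, an immunoproteasome subunit (0.62), and Mx2, counted by its deposited values. Mx2 was above the floor in miR-155 cells alone (at least 0.36 higher, a bound under 1.5-fold).

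Genes of the amino acid and unfolded protein response were also found among the lower ones. Of 31 genes 7 were at least 1.5-fold lower (22.6% against 3.14% of all genes) and 0 higher, with a median of -0.16. The 7 were Slc7a11, the cystathionine lyase Cth (-1.05), the pseudokinase Trib3 (7.74 and 6.77), the transcription factors Atf3 (9.04 and 8.13) and Ddit3, or CHOP (6.18 and 5.37), the leucine sensor Sesn2 (7.96 and 7.13) and the kinase Ern1 (-0.71). Atf4, the factor that drives most of these, was at -0.30 and Asns at -0.31. The endoplasmic reticulum chaperone Hspa5 (0.05) and Xbp1 (0.05) were at the control level. Atf3 was the 1 of these 7 that was higher in the stimulated miR-155 cells past 1.5-fold (1.39).

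Metabolic lists had medians on both sides of 0. LXR and PPAR targets had a median of -0.27 over 17 genes (-0.05 with no floor), 13 of them below 0. Plin2 and the fatty acid carrier Fabp5 (8.52 and 7.80) were at least 1.5-fold lower (11.8% against 3.14% of all genes). Cholesterol and fatty acid synthesis lay to the other side with a median of 0.18 and 22 of 29 genes above 0, none past 1.5-fold. Oxidative phosphorylation had a median of 0.14, with 27 of 37 above 0; Ndufb6 (0.65) and Cox5a (0.62) were the 2 past 1.5-fold. Glycolysis had -0.12, with Hk3 (8.12 and 7.28) and Eno2 (5.65 and 5.02) lower. The iron exporter Slc40a1 was lower by at least 0.57, and Steap3, an endosomal iron reductase, by 0.67, in an iron and heme list with a median of -0.14. Nrf2 target genes had -0.04 (0.02 with each array centred). Of 22 genes 3 were at least 1.5-fold lower (13.6% against 3.14% of all genes), among them Gstm1 (7.96 and 7.05).

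The list of replication-dependent and linker histones also holds the variant genes H2ax and H2az1. All 15 of its genes above the floor had higher values in the miR-155 cells, with a median of 0.45. Of the 15, 7 passed 1.5-fold (46.7% against 1.18% of all genes). Over all 30 histone genes found by symbol, a list made after the data were seen, 28 were above 0 and 2 below, and 10 passed 1.5-fold (33.3%). H2ax was at 9.45 and 10.35, H2ac4 at 8.48 and 9.31, and H4c9, H4c3 and H4c4 were higher by 0.74, 0.70 and 0.69. Histone genes of a family are near copies, and these values may not belong to single genes. G1/S and DNA replication genes had a median of 0.17, with 27 of 38 above 0; E2f2 (6.81 and 7.55) and the thymidylate synthase Tyms (7.64 and 8.23) passed 1.5-fold. G2/M genes had a median of 0.05; 0 of 34 were higher past 1.5-fold and 1 lower, the kinesin Kif20b (-0.71). The cytosolic ribosomal proteins had a median of 0.10, none past 1.5-fold.

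Smaller lists held single large differences. Fusion and adhesion genes had 3 lower, among them Anpep and the integrin Itga4 (11.66 and 10.98), and 3 higher, among them the integrins Itga6 (4.79 and 5.75) and Itgb5 (7.20 and 7.84). Purinergic and prostaglandin genes had Hpgds, P2rx4 (-0.83) and P2ry2 (-0.72) lower past 1.5-fold (21.4% of 14, against 3.14% of all genes). The complement receptor C3ar1 (9.62 and 8.70) and the chemokine receptor Cxcr4 (-0.73) were lower, and Cx3cr1 was higher (0.52). Of the 26 p53 target and cell cycle inhibitor genes 3 were lower (11.5% against 3.14% of all genes), Hbp1, Sesn2 and Trp53inp1. Of 21 FoxO genes 18 lay below 0, with Il7r alone past 1.5-fold by its deposited values, though its bound is under 1.5-fold. The markers of T and B cells, fibroblasts, granulocytes and mast cells, and antigen-presenting cells had medians of -0.05, -0.03, 0.13 and 0.02, and 0 members past 1.5-fold. Apart from the granulocyte list these medians turned sign under at least 1 alternative.

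**Figure D4:**
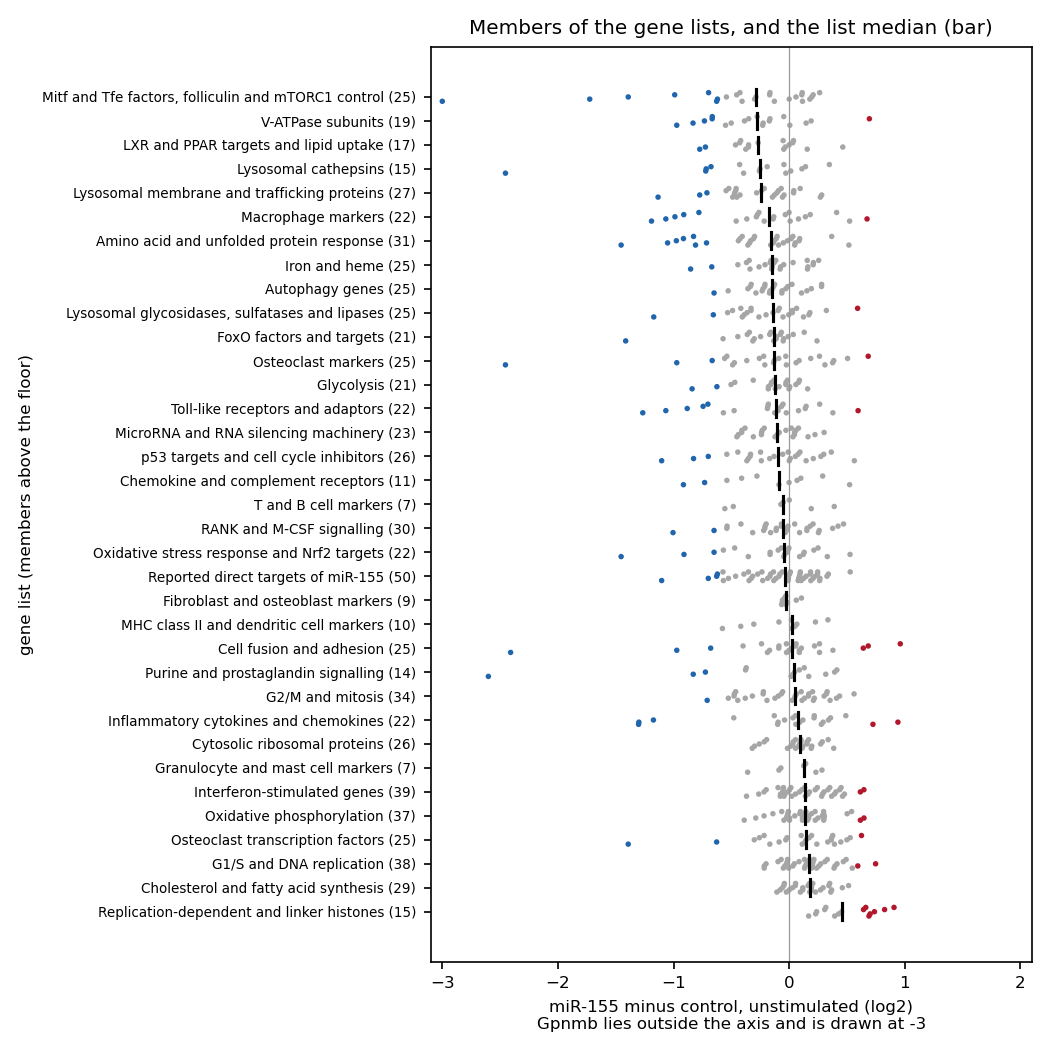
Each point is a gene above the floor, placed by its miR-155 minus control difference without stimulation (log2), 1 row per gene list with the number of members in brackets and a bar at the median; blue and red mark members at least 1.5-fold lower or higher. Medians run from -0.29 for the Mitf and Tfe list to 0.45 for the histones, and genes in several lists appear in each.

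The same contrast after stimulation uses the other two arrays, so it shares no array with the one above. There 1838 genes were at least 1.5-fold lower (13.6% of 13561) and 1674 higher (12.3%) in miR-155 cells. Of the 426 genes lower without stimulation, 165 were lower again (38.7% of the 426 and 8.98% of the 1838), and 84 were higher past 1.5-fold (19.7%). Of the 160 higher genes 64 were higher again (40.0% of the 160 and 3.82% of the 1674), and 16 were lower (10.0%).

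Genes low in both states by the largest mean included, after Gpnmb, Ctsk, Anpep, Gas6 and Osbpl8, the antagonist Il1rn, Edil3, a matrix protein that binds integrins, Rgs1, a brake on G protein signals, the hyaluronan receptor Layn and the urokinase Plau. For Edil3, Plau and Layn the unstimulated difference was smaller than the stimulated one. Edil3 was at 5.55 and 4.50 without stimulation and at 10.42 and 6.99 with it. Plau was at 7.27 and 6.43, then at 11.83 and 9.22. Layn was at 6.03 and 5.15, then at 9.47 and 6.79.

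Genes high in both states were Cxcl14, Gja1, Il18rap, the adaptor Themis2, the fatty acid receptor Gpr84, Fcgr1 and the histones H2ac4, H4c4, H4c6 and H2bc3. Gpr84 was at 9.45 and 10.27 without stimulation and at 5.87 and 9.28 with it. Themis2 was at 8.60 and 9.29, then below the floor in control and at 8.52 in miR-155 cells. The control cells thus gave the lowest of the 4 values for both genes after stimulation, and the 2 miR-155 values were closer to each other.

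**Figure D5:**
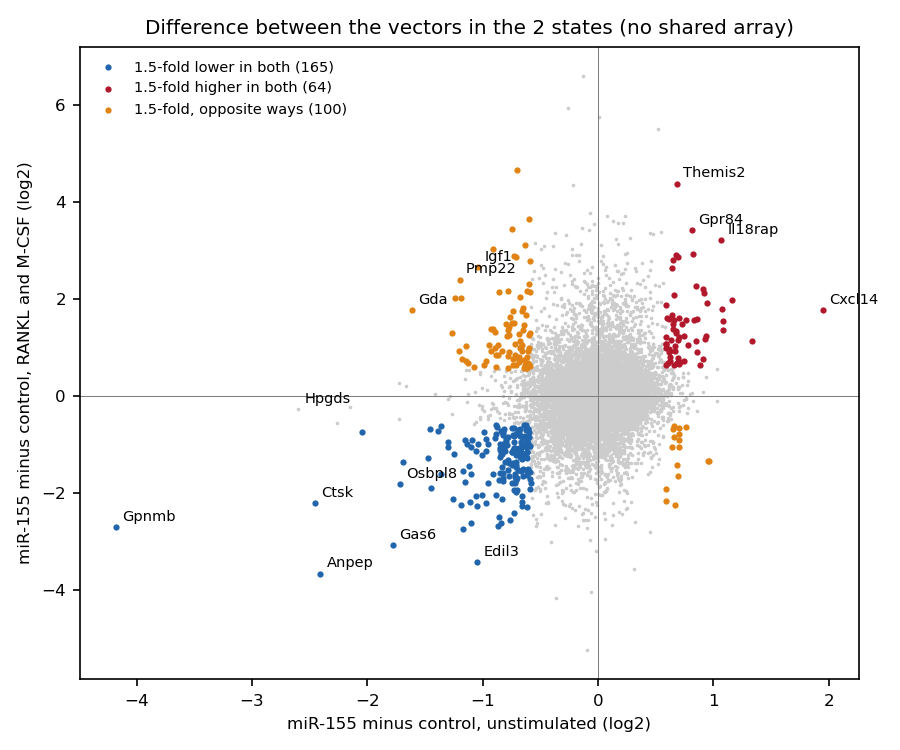
Each point is 1 of 13561 genes, with the miR-155 minus control difference (log2) without stimulation on the horizontal and with RANKL and M-CSF on the vertical axis. Of the genes past 1.5-fold in both, 165 are lower in both (blue), 64 higher (red) and 100 opposite (orange); the stimulated differences spread more widely, with an SD of 0.68 against 0.28.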

How the data were processed

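Per the labels' protocols, 100 ng of total RNA, isolated with RNeasy, was labelled for Affymetrix Mouse Gene 1.0 ST arrays. The authors deposited 1 log2 value per probe set and array. The submitters' processing notes name RMA, which includes quantile normalization, and Partek. Their versions, and the build, were not stated in the sources used here. Quantile normalization would hide a difference in total RNA.

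Of 35557 probe sets, 21789 had 1 gene symbol in the platform annotation, 1621 several and 12147 none; 21698 of the first kind had their gene ID in the RefSeq table. Each of 19938 genes was represented by its brightest probe set by mean (999 had several). A gene counted when its highest value on the 4 arrays passed the floor. Where 1 value lay below the floor, the fold is the bound of the brighter value over the floor. Differences are miR-155 minus control. Every group has 1 array, so no test was run; the counting step was tested on simulated data. The 35 gene lists, thresholds and named genes were chosen with earlier results of these data known, and the lists share genes. Named were the 30 lowest and up to 15 highest past 2-fold, up to 4 members per list with the largest differences, the reported targets past 1.5-fold, up to 10 each way past 1.5-fold in both states, genes past 2-fold in opposite directions in the 2 states, and preset genes; other list members were named after their values were seen. The count of unused per-sample columns was 0. The 7 alternatives covered the floor, probe set averaging, centring, normalization and an intensity trend. Python 3.11.15, numpy 2.4.6, pandas 2.3.3, statsmodels 0.14.6 and matplotlib 3.10.9 were used.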

Additional observations from a re-analysis of the deposited data

Results flagged for a closer look

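Genes whose deposited values differed by 2-fold in opposite directions in the 2 states are given here with the miR-155 minus control difference without stimulation first and with it second. Gda had -1.61 and 1.78, Atrx -1.26 and 1.30, Hmgn5 -1.24 and 2.02, Pmp22, a membrane protein of myelin and other cells, -1.20 and 2.40, the pore-forming Mpeg1 -1.19 and 2.02, the lectin Clec10a -1.14 and 1.04, and the growth factor Igf1 -1.04 and 2.66. For Gda and Clec10a the stimulated control value was below the floor, so there the miR-155 value was at least 2.30-fold higher for Gda and at least 1.65-fold, a bound under 2-fold, for Clec10a. With 1 array per group, the difference between the states was not tested.

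Outside the genes with 1 symbol, 13768 probe sets had no symbol or several, and 7377 of them were above the floor. There 137 probe sets were at least 2-fold higher in unstimulated miR-155 cells (1.86%) and 276 at least 2-fold lower (3.74%), larger shares than among genes with 1 symbol. What they detect is not named here.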

How the results depend on the processing

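No paired analysis was possible because each group has 1 array and no replicate number pairs cultures. No named gene past 1.5-fold turned sign under the 7 alternatives, and of 1239 values of 179 named genes 1 moved (Mitf, -0.36 with the mean of its probe sets). With each array centred on its median, 253 genes were at least 1.5-fold higher. Among 244 list medians 3 moved: LXR and PPAR targets and lipid uptake to -0.053 with no floor, and, with the floor at the 99th percentile, chemokine and complement receptors to -0.28 and T and B cell markers to -0.48. Small medians turned sign with centring for the reported targets (0.03), RANK and M-CSF signalling (0.01), Nrf2 targets (0.02), T and B cell markers (0.01) and fibroblast and osteoblast markers (0.04); T and B cell markers also did with no floor (0.12), and MHC class II and dendritic cell markers with the stricter floor (-0.03) and with the intensity trend removed (-0.01). The causes were not tested. Of the 74 genes 2-fold lower, 57 were shared with the centred values and 62 with values quantile normalized again; all 9 higher genes were kept under every alternative. Values near the floor have no order, and array signals there bound rather than measure a level.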

Other observations

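The lists in this part were put together after the data were seen and are descriptions. Small nucleolar RNA genes, most of which lie in introns of host genes, had a median of 0.20 without stimulation over 46 genes above the floor, with 35 above 0, 6 at least 1.5-fold higher (1.18% of all genes were) and 0 lower. Snord16a was at 7.96 in control and 9.03 in miR-155 cells, Snord15a at 8.25 and 9.03, Snord15b at 8.61 and 9.39, and Snora62 at 6.52 and 7.28. After stimulation the same 46 genes had a median of 0.83, and 30 were at least 1.5-fold higher, as were 12.3% of all genes in that state.

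A few genes of splicing and chromatin were picked because their values were low without stimulation. Atrx, the splicing kinase Clk1 (8.30 in control, 7.15 in miR-155 cells), Ttc14 (6.51 and 5.37), Rsrp1 (8.41 and 7.34), Chd2 (7.28 and 6.26), Ankrd12 and Prpf39 had a median of -1.08, which the choice fixes, and of 0.60 after stimulation. Of 13 further genes named from knowledge of splicing and nuclear RNA, 13 were below 0 without stimulation, with a median of -0.48. Of these, 3 were lower past 1.5-fold (23.1% against 3.14% of all genes): Clk4 (-0.72), Luc7l3 (-0.68) and the nuclear RNA Malat1 (-0.62). After stimulation the median of the 13 was 0.61 and 7 were at least 1.5-fold higher (12.3% of all genes were), while Malat1 was lower (-1.15).

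Among 300 microRNA genes with a probe set, 111 were above the floor, and 5 passed 1.5-fold: Mir211 (-0.59), Mir191 (0.63), and Mir19b-1, its host transcript Mir17hg and Mir3068, each with 1 value below the floor, which were lower by at least 0.40 and 0.48 and higher by at least 0.13. These probe sets read precursor or host RNA, not the mature microRNA. Of all 13561 genes, 586 passed 1.5-fold, so 5 of 111 is near the share over all genes. The bounds of Mir19b-1, Mir17hg and Mir3068 are under 1.5-fold.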
